A study of Mus musculus with 55 samples.

Results

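In livers of TCPOBOP-treated Setd8-LKO mice, 549 H4K20Me3 islands were called at places where the list of untreated wild type livers held none. An island is a stretch of neighbouring 20 kb windows in which SICER found more CUT&Tag reads of trimethylated lysine 20 of histone H4 than its background, and a gained island is one of the Setd8-LKO list that shares not even 1 bp with a wild type island. They are 549 of the 2106 islands of the Setd8-LKO list. The other 1557, called kept here, overlap a wild type island, and 292 wild type islands have no counterpart in the Setd8-LKO list and are called lost. The same 2 lists chose the islands, so the members were selected on the H4K20Me3 calls themselves, and their scores and lengths are given as a description.

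The mice were males of 45 to 50 days. In Setd8-LKO mice the floxed exon 7 of Setd8 (gene symbol Kmt5a) is deleted by AlbCre, which acts in hepatocytes, and the mice received TCPOBOP, an agonist of the nuclear receptor CAR, once at 3 mg/kg and were analysed after 24 h. The wild type mice were either untreated or given the same TCPOBOP dose for 24 h. The chromatin lists set Setd8-LKO after TCPOBOP against wild type without it, so genotype and treatment cannot be told apart in them. The paper reports that most hepatocytes were lost from TCPOBOP-treated Setd8-LKO livers and that small mononuclear cells were enriched. A different mix of cells therefore cannot be told apart from a change within hepatocytes in these lists either. For controls that the labels call untreated, the methods name an oil vehicle and the reporting summary a DMSO mock treatment. Each condition has 1 list per assay, made from these numbers of libraries, in each pair the wild type first: H4K20Me3 2 and 2, Lamin A/C 4 and 4, H3K27ac 3 and 3, ATAC-seq 3 and 5, CTCF 4 and 2, Smc3 3 and 2. The labels name only WT1 and WT2 for the 4 wild type Lamin A/C libraries, and how libraries were combined is not given in the sources used here. With 1 list per condition there is no replicate check. RNA was sequenced from 5 wild type livers without treatment, 5 with TCPOBOP, and 4 Setd8-LKO livers with TCPOBOP. Whole liver was sequenced, and fewer cells of a type and less RNA per cell cannot be told apart.

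Methyl groups are added to lysine 20 of histone H4 in steps by different enzymes, Setd8 at the start and the Suv4-20h pair at the end. H4K20Me3 is known from constitutive heterochromatin, where it lies together with H3K9 trimethylation on repeats, imprinted regions and silent gene clusters. Much of that chromatin touches the nuclear lamina, the meshwork under the inner nuclear membrane of which Lamin A/C is a part. The other assays read active and structured chromatin. H3K27ac marks active promoters and enhancers, ATAC-seq reads DNA open to transposase, CTCF binds a fixed DNA motif at domain boundaries and imprinted regions, and Smc3 is a subunit of the cohesin ring that CTCF holds in place.

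The regions differ in what their DNA carries, and CTCF peaks inside them show it at base level. The 6 sequences below, read from GRCm38 (mm10) around summits of CTCF peaks in gained islands, run 5′ to 3′ on the strand given. Capitals mark the best match to the core of the CTCF motif, 13 bases long, where it had at most 2 mismatches. They were chosen after the values were seen. The first pair are the highest Setd8-LKO peaks by fold enrichment. The others were chosen with the peaks of 1 chromosome left out, so they are the highest only among the remaining peaks. The first of these is the highest in both lists with the core. The next are the highest in the Setd8-LKO list only, with the core and with or without it. The last is the highest in the wild type list only with the core. For this choice the core was a match with at most 1 mismatch.
Rab3ip, exon, both lists, chr10:116950545-116950573, minus strand: ccctcctgTCGCCAGGGGGCGccgcagcg
nearest gene Vrk1, intergenic, both lists, chr12:105962859-105962919, plus strand: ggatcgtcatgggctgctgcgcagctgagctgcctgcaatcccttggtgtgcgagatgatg
island of Clec2h, intergenic, both lists, chr6:128761010-128761070, minus strand: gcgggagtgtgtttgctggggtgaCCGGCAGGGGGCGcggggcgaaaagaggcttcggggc
Peg13 and Trappc9, exon, Setd8-LKO list only, chr15:72810078-72810106, minus strand: gttcctacCCGGTAGAGGGCGccgcagaa
Glb1 and Tmppe, exon, Setd8-LKO list only, chr9:114401284-114401312, plus strand: ccaccgcgcggggacgctccgccgctggg
island of Rtn4rl2, intergenic, wild type list only, chr2:84890141-84890201, minus strand: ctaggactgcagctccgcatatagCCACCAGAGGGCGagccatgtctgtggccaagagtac
The Rab3ip match has 2 mismatches, those of the Clec2h island and Peg13 have 1, and that of the Rtn4rl2 island has 0. The Setd8-LKO peak over Peg13, an imprinted non-coding gene, had a fold enrichment of 39.6. The peak over Glb1 and Tmppe reached 40.8 without a match to the core at this limit, as did the peak 47339 bp from Vrk1 with 90.8. The wild type peak with the perfect core reached 16.8 and had no counterpart in the Setd8-LKO list. Its value is not compared with the Setd8-LKO ones, because the lists differ in scale. CTCF peaks of gained islands that were in both lists had a median fold enrichment of 13.0 in the wild type list and 42.4 in the Setd8-LKO list.

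The second set of sequences is upstream of listed genes that start in gained islands and whose liver RNA changed. Each is 120 bases that end at or close to the RefSeq transcript start (GRCm38.p6), on the strand of the gene. Capitals mark TATAA (TATA box), CCAAT or GTTAAT (part of the site of HNF1, a hepatocyte transcription factor) on either strand. The first 4 genes fell in the libraries labelled Setd8-LKO and the other 4 rose.
Clec2h, chr6:128662265-128662384, plus strand: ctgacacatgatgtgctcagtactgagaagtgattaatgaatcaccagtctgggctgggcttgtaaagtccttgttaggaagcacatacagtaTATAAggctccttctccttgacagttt
Slc22a28, chr19:8131983-8132102, minus strand: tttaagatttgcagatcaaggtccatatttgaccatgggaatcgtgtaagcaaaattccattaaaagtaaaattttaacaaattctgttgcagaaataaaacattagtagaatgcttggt
Slc22a30, chr19:8405112-8405231, minus strand: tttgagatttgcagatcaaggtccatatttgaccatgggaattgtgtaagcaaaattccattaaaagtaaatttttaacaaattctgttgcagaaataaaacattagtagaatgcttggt
Serpina1c, chr12:103904951-103905070, minus strand: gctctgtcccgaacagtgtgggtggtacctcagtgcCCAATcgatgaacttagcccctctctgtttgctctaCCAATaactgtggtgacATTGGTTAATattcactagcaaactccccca
Slc7a1, chr5:148399905-148400024, minus strand: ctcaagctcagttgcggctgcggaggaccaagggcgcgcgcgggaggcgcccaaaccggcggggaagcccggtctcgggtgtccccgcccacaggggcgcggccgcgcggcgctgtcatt
Zfp641, chr15:98296162-98296281, minus strand: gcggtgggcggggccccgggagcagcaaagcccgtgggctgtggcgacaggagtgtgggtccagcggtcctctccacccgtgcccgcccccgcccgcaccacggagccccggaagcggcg
Kifc5b, chr17:26916971-26917090, plus strand: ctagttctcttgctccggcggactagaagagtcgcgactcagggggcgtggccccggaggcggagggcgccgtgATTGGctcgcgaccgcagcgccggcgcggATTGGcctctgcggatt
Tlr1, chr5:64933564-64933683, minus strand: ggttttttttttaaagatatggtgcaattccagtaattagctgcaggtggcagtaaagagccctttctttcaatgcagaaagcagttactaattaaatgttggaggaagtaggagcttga
The Slc22a28 and Slc22a30 sequences are nearly the same stretch, with 238 of 244 upstream bases identical (97.5%) after a shift of 6 bases. In Serpina1c an inverted CCAAT and GTTAAT overlap within the run ATTGGTTAAT.

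Of 26 protein-coding genes that were listed in the larger RNA table and start in gained islands, 23 had a RefSeq promoter of 250 upstream bases. The 9 that fell had a median GC content of 45.2% (25.6 to 55.2) and a median of 1 CpG (0 to 7). The 9 that rose had a median GC content of 64.8% (39.2 to 73.6) and a median of 20 CpGs (1 to 29). Over all 32851 RefSeq promoters the medians were 52.4% and 6 CpGs, and over the 320 that start in gained islands 48.6% and 3. TATAA stood on either strand in 29.1% of these 320, in 22.8% of all promoters and in 45.0% of the 2677 that start in kept islands. The CCAAT shares were 36.6%, 33.8% and 38.1%, and those of GTTAAT 10.0%, 6.43% and 11.6%. The numbers of fallen and risen genes are small, and no test was made.

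Gained islands were short and scattered. Together they covered 30.56 Mb, with a median length of 40 kb (20 to 280). Of the 549, 174 were a single 20 kb window, 149 were 40 kb and 85 were 60 kb, whereas kept islands had a median of 180 kb and covered 601.34 Mb. The SICER score, a sum over the enriched windows of an island, had a median of 64.6 (35.2 to 1220) in gained islands. As a sum over windows it depends on length, so the scores of gained and of the longer kept islands were not tested against each other. The lowest score in the whole Setd8-LKO list was 35.2. Score and length ranked only weakly alike over the gained islands (Spearman's rho 0.196, n = 549, neighbouring regions of the same 2 lists).

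Few gained islands stood close to the edge of the rule. The median distance from a gained island to the nearest wild type island was 500 kb (20 to 16540), and 87 lay within 100 kb. Just inside the rule were 4 islands with a wild type island 20 kb away, on chromosomes 1, 3, 6 and 7 (chr1:147140001-147220000, chr3:42300001-42400000, chr6:6980001-7040000 and chr7:72740001-72760000), with scores of 58.4, 82.5, 50.5 and 59.6. On the other side, 44 kept islands had less than 50% of their sequence in wild type islands, and 89 overlapped them by exactly 20 kb, a count that includes kept islands of a single window, and longer ones such as chr14:116560001-116740000, chr9:76620001-76760000 and chr5:143160001-143260000 with scores of 82.9, 39.2 and 1060. The median score of the whole Setd8-LKO list was 144, and 86 gained islands reached it. Most islands of that list are the longer kept ones, so length enters this count.

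Chromosome 19 held the densest set. There 20 of 25 Setd8-LKO islands were gained (80.0%) and they covered 27.1 kb per Mb. On chromosome 15, 35 of 92 were gained (38.04%, 21.7 kb per Mb), and on chromosome 5, 41 of 117 (35.0%). Chromosome 7 had the lowest share among the chromosomes, 18 of 108 (16.7%). Chromosome 19 had only 5 kept islands and 0 lost ones, so its high share stands on few islands.

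**Figure D1:**
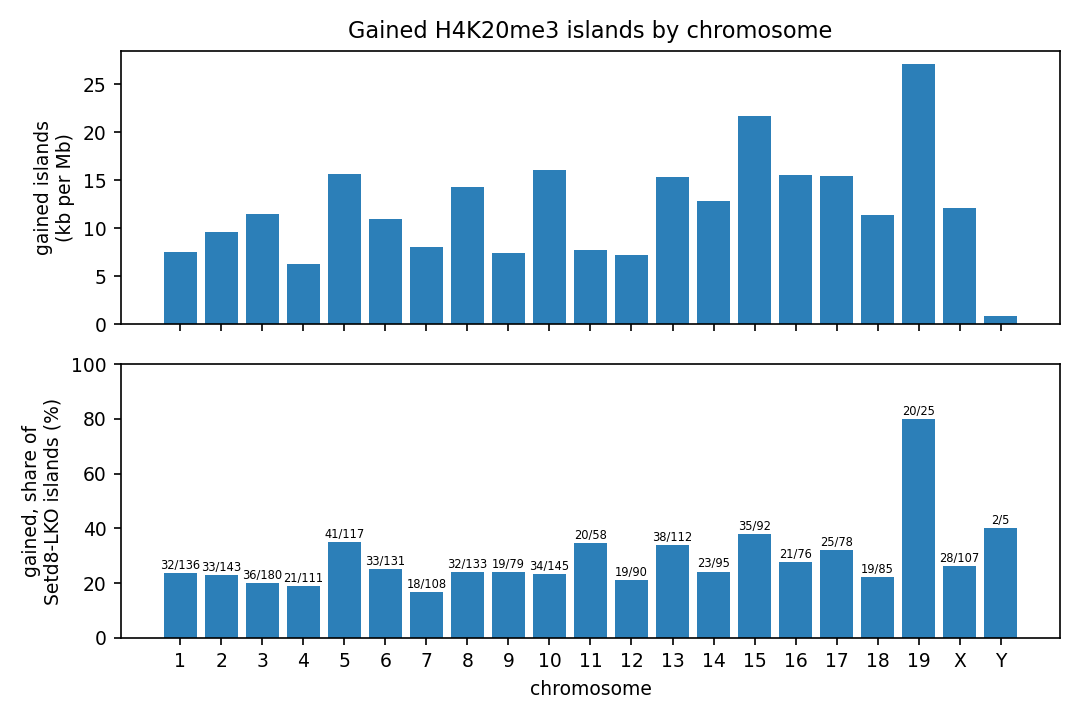
Gained H4K20Me3 islands by chromosome, as kb of island per Mb of chromosome (top) and as the percentage of all Setd8-LKO islands of the chromosome (bottom, with the counts above the bars). Chromosome 19 stands highest in both panels, with 27.1 kb per Mb and 20 of 25 islands.

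By gene density the gained islands lay between kept islands and the genome outside islands, and by CpG density they were near the latter. Their median GC content was 42.3%, against 39.2% in kept and 39.9% in lost islands, and they had a median of 9.25 CpGs per kb against 5.91 in kept islands. Pooled over their sequence the density was 9.23 CpGs per kb in gained islands, 5.77 in kept islands and 9.21 outside islands. Repeat-masked sequence made up a median of 43.4% of gained and 43.6% of kept islands, and 34.2% of the genome outside islands. GENCODE M21 places 626 gene starts in gained islands, 20.5 per Mb, compared with 12.8 per Mb in kept islands and 24.2 outside. Protein-coding genes were sparser, 5.76 per Mb (176 genes), which lay above the 3.15 of kept islands and below the 10.4 outside. Among kept islands no longer than the longest gained one (280 kb), a comparison added after the data were seen, it was 4.41 per Mb. No gene started in 257 of the 549 islands.

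The genes that start in gained islands include gene families that are silent in liver and families that the liver uses. Olfactory receptors, the odour receptors of the nasal epithelium, had 34 genes in 8 gained islands and 857 in kept islands, of 1407 in the genome. Zinc finger genes of the Zfp series, many of them repressors of repeats, had 12 genes in gained and 130 in kept islands, of 417. Cytochrome P450 genes, the oxidases of drug and steroid metabolism, had 7 in gained islands (Cyp2d9, Cyp2d12, Cyp2d32-ps, Cyp2e1, Cyp2b23, Cyp4a30-ps and Cyp21a1) and 9 in kept ones, of 131. Solute carriers, membrane transporters, had 6 in gained (among them Slc22a28, Slc22a30, Slc7a1 and Slc43a3) and 4 in kept islands, of 394 in the genome. These are counts without a test. Processed pseudogenes, copies made by reverse transcription, made up 161 of the 626 genes (25.7%) against 17.9% in the genome, and lincRNAs 93 (14.9%) against 10.6%. Protein-coding genes made up 28.1% against 39.6%. No Hox, keratin or collagen gene started in a gained island.

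The islands with the highest scores were unlike one another in what they held. The top island, chr4:141460001-141500000 with a score of 1220, contained no gene start, but H3K27ac peaks went from 1 in wild type to 3 in Setd8-LKO, Smc3 peaks from 1 to 7 and CTCF peaks from 0 to 3. The second, chr15:76100001-76120000, was a single window with a score of 1000 and also had no gene start. The island chr12:105860001-106000000 scored 807 and held 3 genes, all non-coding. Zfp365 and Rtkn2 started in chr10:67900001-68060000 (score 718), and the claudin genes Cldn22 and Cldn24, of the tight-junction family, in chr8:47780001-47980000 (score 580).
Among the longest, the 280 kb island chr7:140420001-140700000 spanned 14 genes, all olfactory receptor genes or pseudogenes. The 220 kb island chr5:148280001-148500000 held Slc7a1, a transporter of cationic amino acids. The 220 kb island chr15:95280001-95500000 lay wholly inside Lamin A/C islands of both lists and had no gene start and no peak of the other assays, while chr19:51540001-51760000, also 220 kb, lay outside them and had no such peak either.

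In wild type, peaks of active and open chromatin were denser in gained than in kept islands. H3K27ac peaks of wild type liver stood at 8.41 per Mb of gained island (95% Poisson interval 7.41 to 9.50), against 0.534 per Mb in kept islands, 1.42 in kept islands of up to 280 kb and 14.6 outside islands. In Setd8-LKO the value was 6.84 per Mb (5.94 to 7.83), against 0.770, 1.78 and 14.4. ATAC peaks stood at 8.61 per Mb (7.60 to 9.71) in wild type and 7.04 (6.13 to 8.04) in Setd8-LKO, against 0.645 and 0.572 in kept islands and 14.2 and 12.1 outside. All these intervals, and those of the shares that follow, cover counting error only, and no test was made between lists. The peaks sat in a minority of the islands. A wild type H3K27ac peak lay in 104 of the 549 (18.9%) and a Setd8-LKO one in 105 (19.1%), and for ATAC the numbers were 149 (27.1%) and 139 (25.3%).

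The CTCF and Smc3 lists were longer in Setd8-LKO, inside and outside islands. CTCF peaks went from 33 to 146 in gained islands, or from 1.08 per Mb (0.743 to 1.52) to 4.78 (4.03 to 5.62), while the whole list went from 5838 to 20905 peaks. In kept islands CTCF went from 0.118 to 1.76 per Mb and outside from 3.05 to 10.4. Smc3 peaks went from 2.59 per Mb (2.05 to 3.22) to 4.81 (4.06 to 5.65) in gained islands, from 0.145 to 1.1 in kept islands and from 6.85 to 11.0 outside. The share of gained islands with a CTCF peak was 5.10% in wild type and 19.1% in Setd8-LKO, and with an Smc3 peak 9.84% and 19.7%. The CTCF lists come from 4 and 2 libraries, and the part of library number and quality in the list sizes was not tested.

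**Figure D2:**
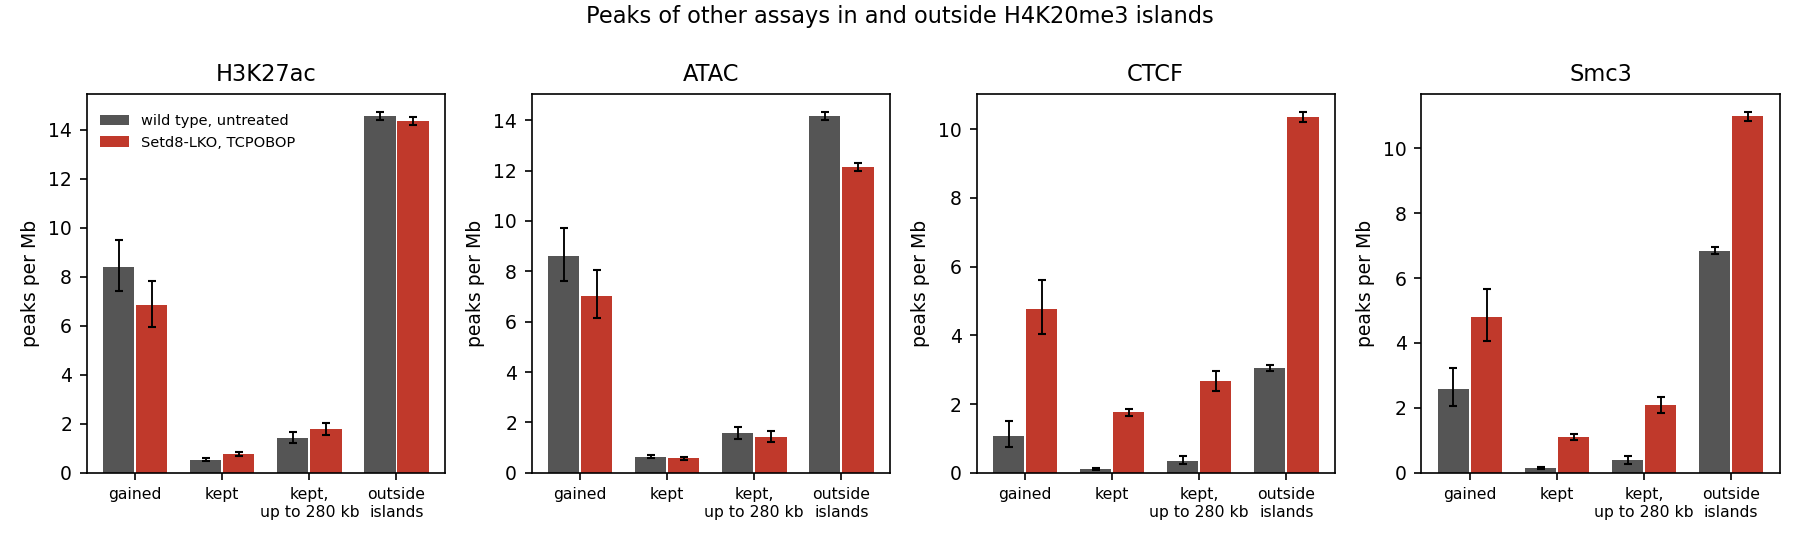
Peaks per Mb for H3K27ac, ATAC, CTCF and Smc3 in gained islands, in kept islands, in kept islands of up to 280 kb and outside all islands, with bars for untreated wild type and TCPOBOP-treated Setd8-LKO lists and 95% Poisson intervals for counting error. For H3K27ac and ATAC the gained islands stand between kept islands and the rest of the genome, with 8.41 and 8.61 peaks per Mb in wild type.

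The wild type peaks inside gained islands were found again in Setd8-LKO unequally between the assays. For H3K27ac, 151 of 257 wild type peaks (58.8%, Clopper-Pearson interval 52.5 to 64.8) overlapped a Setd8-LKO peak, against 78.8% (73.9 to 83.2) in kept islands and 77.7% of all wild type peaks. The wild type peaks that were not found again were the lower ones, with a median fold enrichment of 8.24 against 11.9. The same held over all wild type H3K27ac peaks, at 7.67 against 14.9. For ATAC the share was 71.1% (65.2 to 76.5), and 73.0% over all peaks, so the interval of the gained islands includes the value of the whole list. For Smc3 it was 22 of 79 (27.8%, 18.3 to 39.1) against 42.5%, and for CTCF 15 of 33 (45.5%, 28.1 to 63.6) against 58.1%, where the interval again includes the whole list.
In the other direction, 60 of 209 Setd8-LKO H3K27ac peaks in gained islands (28.7%) had no wild type counterpart, against 25.5% over all and 47.1% in kept islands. Of the Setd8-LKO CTCF peaks 131 of 146 (89.7%) were new, against 83.9% over all, and of the Smc3 peaks 126 of 147 (85.7%) against 76.0%.

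A few islands show how different these changes were. The island of Cyp2e1, the ethanol-oxidising cytochrome P450, and Syce1 (chr7:140740001-140820000) held 12 H3K27ac and 7 ATAC peaks in the wild type list and 10 and 5 in the Setd8-LKO list, while Smc3 peaks went from 9 to 2. The Cyp2d island with Cyp2d9 and Cyp2d12 (chr15:82420001-82560000) had 11 and 9 H3K27ac peaks. An island with no protein-coding gene, chr13:36620001-36700000, went from 2 to 9 H3K27ac peaks. CTCF peaks went from 0 to 5 and Smc3 peaks from 3 to 6 in chr4:156120001-156220000, where Agrn, a basement membrane proteoglycan, the interferon-induced Isg15, Perm1 and Rnf223 start. They went from 0 to 4 and from 0 to 3 in the single window chr7:5020001-5040000 with Zfp865, Zfp784 and Ccdc106.
Of the 2 highest peaks of each assay, those of H3K27ac lay within 1 kb of gene starts. H3K27ac reached a fold enrichment of 53.8 at Morc3, whose protein is a chromatin ATPase, and 53.6 at Cand1, a regulator of cullin ligases, and both overlapped wild type peaks. Smc3 reached 94.8 at the same Morc3 site and 92.6 in Scarb2, a lysosomal membrane protein gene, at 1252 bp from its start. The ATAC values are means over broad peaks, not values at a summit, and are not compared with those of the other assays. They were 14.1 at 5768 bp from the major urinary protein pseudogene Mup-ps1 and 12.9 at 6289 bp from Ppp1r3a, the latter only in Setd8-LKO.

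The CTCF core was common at shared peaks and rare at new ones. Within 50 bases of the summit, with at most 1 mismatch and on either strand, the core stood at 8 of 15 Setd8-LKO peaks of gained islands that were also in the wild type list (53.3%) and at 7 of 131 that were not (5.34%). Over all CTCF peaks these shares were 51.1% and 8.88%, and in kept islands 51.7% and 2.72%. The median fold enrichment of these peaks in gained islands was 42.4 and 11.7. Wild type CTCF peaks of gained islands had the core at 21 of 33 (63.6%), against 60.5% of all wild type peaks. In windows moved by 10 kb it stood at 0 of 146 in gained islands and at 0.862% of windows over the whole Setd8-LKO list. A match is a description of the DNA, not a measure of binding.
The neighbours of the new CTCF peaks were counted too. Of 131 CTCF peaks of gained islands in the Setd8-LKO list only, 48 (36.6%) overlapped an H3K27ac peak and 46 (35.1%) lay within 1 kb of a gene start. Both shares are below those of all Setd8-LKO CTCF peaks, 52.8% and 46.8%. Of the 18 in the wild type list only, 0 and 1 did. An Smc3 peak accompanied 58.0% of the 131 and 61.1% of the 18, against 71.0% of all Setd8-LKO and 75.1% of all wild type CTCF peaks.

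**Figure D3:**
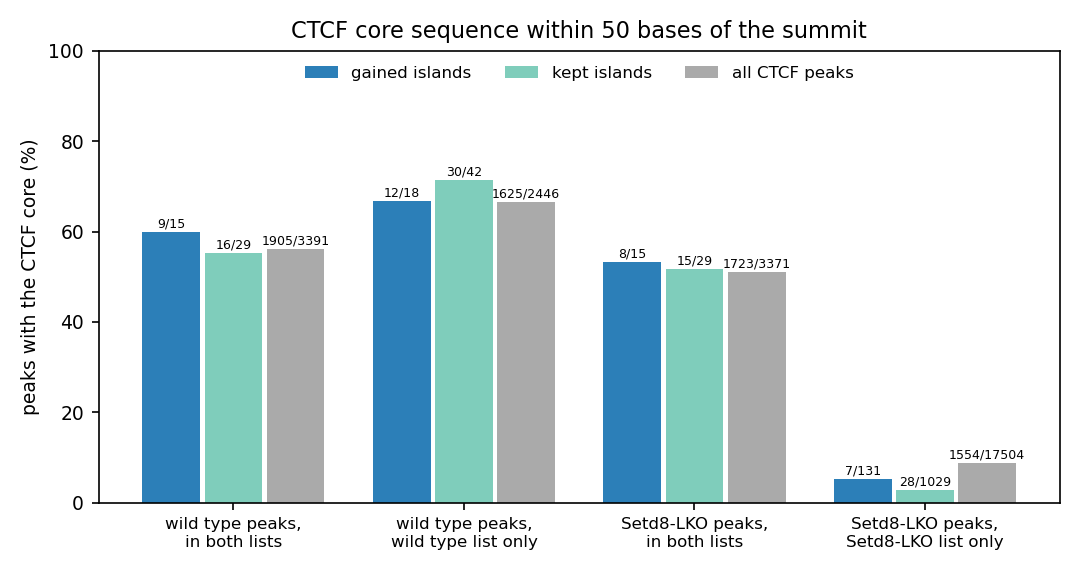
Percentage of CTCF peaks with the CTCF core within 50 bases of the summit, for wild type and Setd8-LKO peaks that are in both lists or in 1 list only, in gained islands, in kept islands and over all peaks (counts above the bars). Setd8-LKO peaks absent from the wild type list have the core least often, 7 of 131 in gained islands.

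Most gained islands lay away from the lamina. A Lamin A/C island overlapped 66 of the 549 in wild type (12.02%, 9.42 to 15.0) and 52 in Setd8-LKO (9.47%, 7.15 to 12.2), and 474 (86.3%) overlapped none in either list. Of the kept islands 70.8% and 65.6% overlapped one, of those of up to 280 kb 59.7% and 52.5%, and of the lost islands 75% and 62.0%. By sequence, 12.6% and 10.5% of the gained 30.56 Mb was inside Lamin A/C islands, below the 32.1% and 28.6% of the whole genome. The 497 gained islands outside the Setd8-LKO Lamin A/C islands had a median distance of 1560 kb to the nearest one. Of the 549, 9 overlapped a Lamin A/C island in the Setd8-LKO list only and 23 in the wild type list only.

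**Figure D4:**
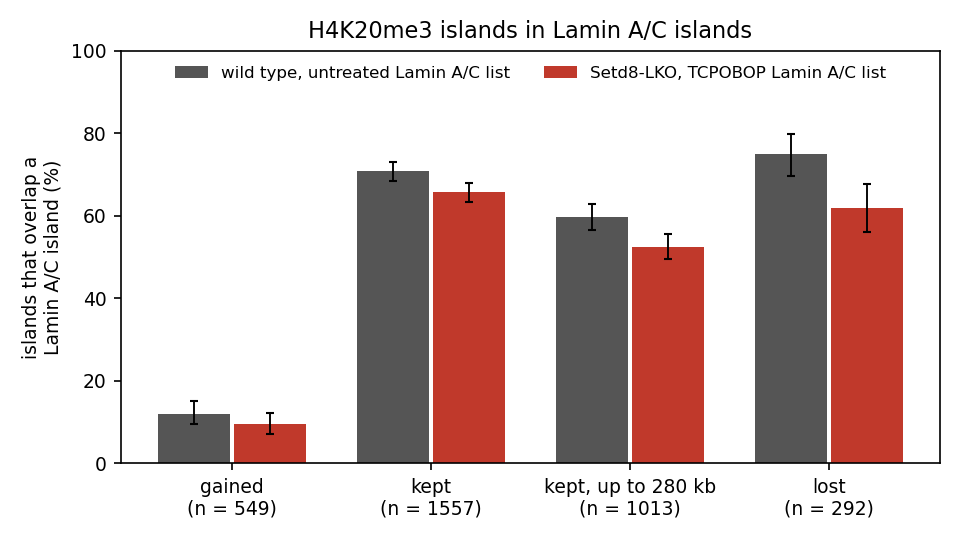
Percentage of H4K20Me3 islands that overlap a Lamin A/C island by at least 1 bp, for gained, kept, kept of up to 280 kb and lost islands, against the wild type and the Setd8-LKO Lamin A/C list, with 95% Clopper-Pearson intervals for counting error. Gained islands stand at 12.02% and 9.47%, and each other class above 50%.

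H3K27ac and Lamin A/C divided the gained islands into 3 kinds, and few islands had both. The 104 islands with a wild type H3K27ac peak held 92 of the 176 protein-coding genes (14.7 per Mb) and had a median score of 90.8, and 2 of them overlapped a Lamin A/C island. The largest kind, 372 islands (67.8%), had neither and held 3.59 protein-coding genes per Mb. The remaining 73 had no wild type H3K27ac peak but lay in a Lamin A/C island of either list, with a median score of 53.6. In 312 islands (56.8%) no peak of H3K27ac, ATAC, CTCF or Smc3 was called in either list.

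Before the RNA of genes in gained islands, the RNA of the deleted gene itself was examined. Kmt5a, which encodes Setd8, had 613, 567, 761, 563 and 715 normalised counts in the untreated wild type libraries and 1341, 1465, 1338 and 1313 in the libraries labelled Setd8-LKO. It was higher in all 4, by 1.08 ± 0.14 on the log2 scale (SE, edgeR quasi-likelihood test, adjusted p = 0.00044464), but with DESeq2 size factors over the listed genes the value was 0.27 without a call. Under neither scaling was it lower. The count covers the whole gene, and exon 7 was not counted separately. The libraries are therefore named by their labels in what follows. Hepatocyte markers had high counts in each library, with Alb, the plasma albumin gene, at 630727 to 1230910 in wild type.

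The RNA tables list only genes that the authors selected for a change, 3900 for the libraries labelled Setd8-LKO and 719 for TCPOBOP-treated wild type, each against untreated wild type. A gene that is not listed was not analysed here. Of the 626 genes that start in gained islands, 38 in 33 islands were listed in the first table and 7 in 7 islands in the second. The tables share 5 of them and 515 gained islands held no listed gene. A gene was called when edgeR gave an adjusted p under 0.05, by Benjamini-Hochberg over the 55450 genes of the annotation, and a log2 fold change of at least 1 in size.

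In the libraries labelled Setd8-LKO, 16 of the 37 tested members rose and 13 fell, where 50.7% of all tested listed genes rose and 33.9% fell. As shares of the members these are 43.2% and 35.1%. The groups did not overlap in 29 of the 37, and 86.2% of all tested listed genes had groups apart. The median log2 fold change was -1.09 over the members and 1.19 over all 3807 tested genes. The authors' selection left no member near 0, with 19 below and 18 above, so the median of the members lies at the edge of that gap and is not read as a shift. Of 128 tested genes in kept islands 70 rose and 32 fell. The split depends on scaling. TMM left it at 16 rises and 13 falls, and DESeq2 with the authors' factors gave 18 and 15. With DESeq2 size factors computed over the listed genes, which moved all log2 fold changes by a median of -0.82, 10 members rose and 19 fell, and rises made up 36.9% of all calls instead of 59.98%.

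The largest falls were in Hsd3b5, Clec2h, Gm12718, Mup7, Slc22a28 and Slc22a30. Hsd3b5, a steroid dehydrogenase of male liver, had 6989, 8072, 2739, 2914 and 2579 normalised counts in untreated wild type and 5, 2, 5 and 2 in the libraries labelled Setd8-LKO. Every Setd8-LKO library lay far below every wild type one, at -10.32 ± 0.63 on the log2 scale (edgeR adjusted p = 5.88e-06). With 18 raw counts in the 4 libraries against 20854, wild type was 1285-fold higher (813 to 2168, counting error only). Its start lies in chr3:98620001-98700000, where H3K27ac peaks went from 11 to 2 and ATAC peaks from 6 to 1.
Clec2h, a C-type lectin-related gene, had 688, 462, 551, 52 and 345 normalised counts in wild type and 2, 0, 0 and 0 in the Setd8-LKO libraries. The groups were apart even though wild type replicate 4 was low (edgeR adjusted p = 0.00012997), and on 2 raw counts, both in Setd8-LKO replicate 1, the ratio of wild type to Setd8-LKO was 1062 with a counting interval of 294 to 8778. Its island, chr6:128660001-128780000, holds the CTCF peak printed above and went from 5 to 2 H3K27ac and from 5 to 2 ATAC peaks.
Gm12718, a lincRNA, had 88, 140, 188, 17 and 204 counts in wild type and 5, 2, 2 and 3 in Setd8-LKO, and the 5 H3K27ac peaks of its 20 kb island all went.

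Mup7 encodes a major urinary protein, a pheromone carrier that male liver secretes in bulk. Its normalised counts were 536899, 501722, 178682, 416110 and 287884 in wild type and 5343, 2382, 45425 and 9602 in Setd8-LKO, at -4.61 ± 0.87 on the log2 scale (edgeR adjusted p = 0.006181). The groups were apart, and Setd8-LKO replicate 3 was the high one, without which the value was -6.06. The Mup genes are near-identical, so reads may be shared between them. The pseudogene Mup-ps1 of the same island was not called in the main fit. It was called without Setd8-LKO replicate 3 (-2.99, edgeR adjusted p = 0.028) and, like every uncalled member, with adjustment over the table alone. The island chr4:60020001-60120000 had 3 H3K27ac peaks in wild type and 5 in Setd8-LKO, and 2 ATAC peaks in each list.
Slc22a28 and Slc22a30 are transporters of the organic anion family on chromosome 19. Slc22a28 had 4592, 3900, 3426, 2430 and 3562 counts in wild type and 105, 97, 276 and 175 in Setd8-LKO, and Slc22a30 had 11819, 9796, 8603, 6582 and 9024 against 304, 324, 888 and 451. Both fell with groups far apart, by 4.45 and 4.22 on the log2 scale (edgeR adjusted p = 2.9e-05 and 4.3e-05). Their islands differed, for that of Slc22a28 (chr19:8120001-8140000) had no peak of any assay in either list, while that of Slc22a30 (chr19:8400001-8460000) went from 7 to 2 H3K27ac peaks. As the sequences above show, the genes are close relatives and reads may be shared between them.

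Other falls were smaller. Serpina1c, an antitrypsin gene of hepatocytes, had 351478, 429807, 343942, 318768 and 358517 counts in wild type and 47360, 61827, 111911 and 109305 in Setd8-LKO, at -2.13 ± 0.32 on the log2 scale (edgeR adjusted p = 0.0013). Cyp2e1 had 105925, 120250, 44438, 74302 and 49505 against 15438, 18603, 27045 and 35255. It fell by 1.71 on the log2 scale (edgeR adjusted p = 0.017144), but the run named in the column headers moved with the size. Within run A, with 1 Setd8-LKO library, the difference in mean log2 counts was -0.63, and within run B it was -2.51. The edgeR call was lost without Setd8-LKO replicate 1 (adjusted p = 0.064) or 2 (adjusted p = 0.069), and stayed with run as a term (adjusted p = 0.022).
Fam47e had 462, 396, 637, 1030 and 763 counts in wild type and 58, 104, 111 and 161 in Setd8-LKO, a fall of 2.60 on the log2 scale (edgeR adjusted p = 0.00071). Cyp21a1, the adrenal steroid 21-hydroxylase gene, fell by 1.90 from a low level, and Rprd1a, whose protein binds the tail of RNA polymerase II, fell by 1.09. Without wild type replicate 3 the value of Rprd1a was -0.98, and with run as a term -0.89, both under the threshold of the call in size. Gm36041 and Cib3 were called as falls although their groups overlapped, and Cib3 was not called without Setd8-LKO replicate 1 (adjusted p = 0.065). Obp2a, at 22, 13, 4, 5 and 2 counts against 2, 0, 0 and 0, was too low to be tested, with a ratio of wild type to Setd8-LKO of 15.5 on 42 and 3 raw counts (4.96 to 78.3).

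**Figure D5:**
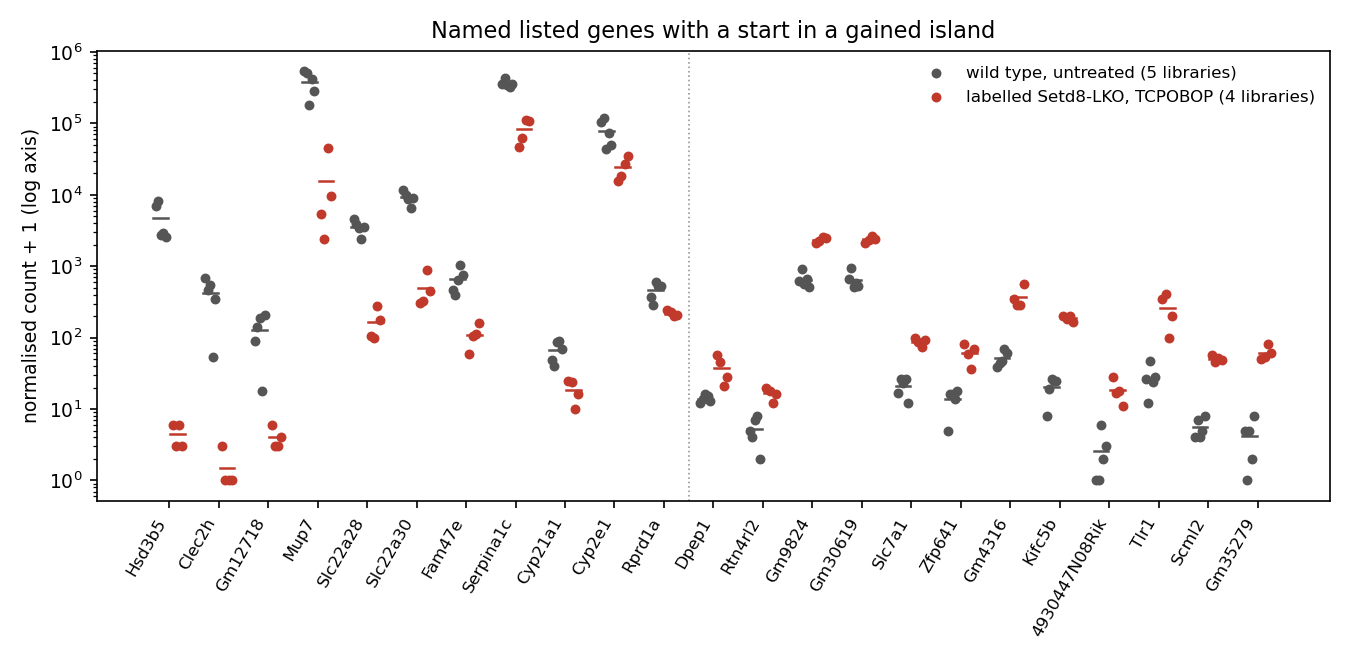
Normalised counts plus 1 on a log axis for the 23 named genes with a start in a gained island, 11 that fell (left of the dotted line) and 12 that rose, with a point for each of 5 untreated wild type and 4 libraries labelled Setd8-LKO and a bar at the mean. Hsd3b5 and Clec2h stand lowest against wild type, and Gm35279 and Scml2 rose most.

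The rises were mostly from low wild type levels. Scml2, a Polycomb group gene of the germ line, had 3, 6, 3, 4 and 7 normalised counts in wild type and 57, 44, 51 and 47 in Setd8-LKO, at 3.40 ± 0.29 on the log2 scale (edgeR adjusted p = 3.4e-05). The 4 Setd8-LKO libraries were close to each other and all above wild type. Gm35279, a lincRNA, had 4, 0, 4, 1 and 7 against 49, 52, 80 and 60. The islands of both genes had no peak of any assay in either list.
Tlr1, a Toll-like receptor for bacterial lipopeptides, had 25, 11, 46, 23 and 27 counts in wild type and 344, 401, 99 and 198 in Setd8-LKO. Kifc5b, a kinesin with close relatives in the genome, had 7, 18, 25, 24 and 24 against 197, 179, 202 and 163. The log2 rises were 3.28 for Tlr1 and 3.24 for Kifc5b (edgeR adjusted p = 0.00077 and 5.6e-05), and in neither gene did the groups overlap.
Slc7a1 had 16, 25, 22, 25 and 11 counts against 98, 85, 74 and 91, and Zfp641, a zinc finger gene, 4, 15, 15, 13 and 17 against 80, 58, 35 and 69. They rose by 2.14 and 2.22 on the log2 scale (edgeR adjusted p = 0.00034 and 0.0027). Both had 1 H3K27ac peak within 1 kb of the start in each list, and CTCF peaks in their islands went from 2 to 4 and from 0 to 2.

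Of the other named rises, 4930447N08Rik (3.27 on the log2 scale) and Gm4316 (2.85) are non-coding. The former rests on wild type counts of 0, 0, 5, 1 and 2, its difference was 1.74 within run A and 4.35 within run B, and without wild type replicate 3 its fitted value was 4.24. Gm9824 (1.85) and Gm30619 (1.88) are overlapping pseudogenes on opposite strands, whose reads cannot be told apart here. Rtn4rl2, a Nogo receptor family gene, had 4, 3, 6, 7 and 1 counts against 19, 17, 11 and 15, and Dpep1, a dipeptidase gene, 11, 13, 15, 14 and 12 against 56, 45, 20 and 27. Rtn4rl2 lost its call without any 1 of wild type replicates 1 or 2 or Setd8-LKO replicates 1, 2 or 4 (adjusted p 0.054 to 0.079), and Dpep1 without wild type replicates 1 or 5 or Setd8-LKO replicates 1 or 2 (0.053 to 0.070) or with run as a term (edgeR adjusted p = 0.070).
The condensin subunit gene Ncapg, Tmem229a, Gm4349 and BC023719 also rose, Tmem229a with overlapping groups, and the last pair lost their calls without most single libraries and with run as a term. They were among the smaller rises, Ncapg at 1.35 on the log2 scale, and DESeq2 size factors over the listed genes gave 10 rises instead of 16. Not called were Mup-ps1, Gm38416, Gm30931, Cyp2d9, Fv1, Cyp2d12, Mill2 and Pglyrp1, of which the first 6 had log2 fold changes from -2.17 to -1.09 and Mill2 and Pglyrp1, which share an island, 1.42 and 1.55.

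Beside these RNA values stood the peaks of the same islands. In the 13 islands of the 13 genes that fell, H3K27ac peaks numbered 60 in wild type and 33 in Setd8-LKO, ATAC peaks 38 and 21, CTCF peaks 5 and 10 and Smc3 peaks 17 and 11. In the 14 islands of the 16 genes that rose, H3K27ac peaks numbered 18 and 20, ATAC peaks 19 and 13, CTCF peaks 4 and 15 and Smc3 peaks 8 and 16. An H3K27ac peak lay within 1 kb of the start of 7 falling genes in wild type and 5 in Setd8-LKO, and of 7 rising genes in both. No test was made between these peak counts, and 515 of the islands held no listed gene.

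Markers of cell types moved in the same libraries. Of 8 hepatocyte markers 6 were listed, and Alb, Ttr, Cps1 and Serpina1a fell, by 1.34, 1.60, 1.36 and 1.98 on the log2 scale, while Cyp3a11, which CAR agonists induce, rose by 1.35 and Tat had -1.29 without a call (called without Setd8-LKO replicate 3, -1.72). DESeq2 called Tat as a fall with the authors' factors (DESeq2 adjusted p = 0.044) and with size factors over the listed genes (-1.98). The call of Alb was lost with run as a term (edgeR adjusted p = 0.082) and without Setd8-LKO replicate 1 or 2 or wild type replicate 2, 3 or 5, and that of Cyp3a11 with DESeq2 size factors (0.57). The summed normalised counts of the 6 were 1257738, 1580940, 1634054, 1164123 and 1952776 in wild type and 650688, 646880, 763601 and 866022 in Setd8-LKO, with Alb the most abundant. All 5 cholangiocyte markers were listed, and Spp1, Epcam, Krt7 and Sox9 rose (Sox9 not with DESeq2 size factors, 0.45) and Krt19 was not called (called without wild type replicate 3, 1.98). Their sum was 686, 609, 422, 668 and 465 in wild type and 7426, 5932, 1617 and 3850 in Setd8-LKO, mostly Spp1. The fibroblast collagens Col1a1 and Col3a1 rose too, the only 2 of 5 stellate or fibroblast markers listed, with sums of 854, 430, 1039, 1060 and 1202 against 6141, 6048, 1817 and 3064. The leukocyte genes S100a8 and S100a9 were listed without a call (called as rises without wild type replicate 4, 2.54 and 2.42), and no macrophage or endothelial marker was listed. With run as a term S100a9 was called as a rise at 2.54 (edgeR adjusted p = 0.046). Adjustment over the table alone called Tat as a fall and Krt19 and S100a9 as rises. None of these markers starts in a gained island, and their part in the RNA changes there was not tested.

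Few genes of the machinery behind the mark were listed. Of 15 genes of H4K20 methylation only Kmt5a and Orc1, whose protein reads dimethylated H4K20 at replication origins, were listed, and Orc1 had 10, 6, 11, 14 and 14 counts in wild type and 15, 34, 18 and 38 in Setd8-LKO without a call. Orc1 was called as a rise with run as a term (1.49, edgeR adjusted p = 0.029) and with adjustment over the table alone. DESeq2 with the authors' factors called it too (1.22, DESeq2 adjusted p = 0.0495). Dtl, which acts in the degradation of Setd8 in S phase, and Cdt1, of the same gene list, rose by 3.06 and 1.78 on the log2 scale. Of 13 genes of DNA methylation and silencing, Uhrf1, Hells and Rbl1 rose by 3.81, 2.78 and 1.89, and of 11 nuclear lamina genes Lmna rose by 1.25. None of the 16 genes of H3K9 methylation and HP1 was listed. Of the 8 listed genes of these lists 7 rose and 0 fell by edgeR, where 50.7% of all tested listed genes rose, and only genes selected for a change could be counted. With DESeq2 size factors over the listed genes Kmt5a, Cdt1 and Lmna were not called and 4 rose. None starts in a gained island.

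The second table listed only 7 of the 626 genes that start in gained islands, and the others were not analysed here. In TCPOBOP-treated wild type 1 of the 7 rose and 2 fell, where 51.9% of all 669 tested listed genes rose and 16.4% fell. The groups did not overlap in 4 of the 7, and in 82.2% of all tested listed genes. Scaling moved this split further than in the first table. EdgeR's TMM and DESeq2 size factors over the listed genes moved all log2 fold changes by a median of -0.98 and -1.17, and the share of rises among all calls was 75.9% with the authors' factors and 28.0% and 29.9% with these. The untreated wild type libraries are the same in both tables. Hsd3b5 had 245, 126, 149, 939 and 502 normalised counts after TCPOBOP, all below wild type, at -3.57 ± 0.62 on the log2 scale (edgeR adjusted p = 0.019326), or -4.19 without TCPOBOP replicate 4. It is a call that was lost without wild type replicate 2 or TCPOBOP replicates 1, 3 or 5 (adjusted p 0.050 to 0.076). The lincRNA Gm36041 had 2, 5, 4, 15 and 16 counts, at -4.01.
Fam47e had 1791, 1646, 1839, 1385 and 1348 counts after TCPOBOP, all above the untreated libraries, and rose by 1.28 ± 0.25 (edgeR adjusted p = 0.04246). That rise was 0.28 with TMM and 0.12 with DESeq2 size factors, without a call, and was not called without any single library other than wild type replicate 4. Clec2h had 48, 7, 68, 113 and 64 counts, overlapping wild type, and Cib3, Syt1 and Gm49421 were not called either. Of the lists above, Dtl, Setdb1 (an H3K9 methyltransferase) and Uhrf1 rose, by 2.2, 1.01 and 3.07 on the log2 scale, Cyp3a11 rose by 2.08, and the stellate cell gene Lrat fell by 1.22. With TMM none of these rises was called, with DESeq2 size factors only that of Uhrf1 was, and Setdb1 was at 0.04 and -0.16. The calls of Dtl and Setdb1 were each lost without any 1 of 6 libraries in turn.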

How the data were processed

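For the chromatin assays the authors trimmed reads with Trimmomatic 0.39 and mapped them to mm10 with HISAT2. They called peaks with MACS2 2.2.7.1 and islands with SICER (submitters' processing notes, which also name deepTools 3.3.2, and the methods). By the methods, ChIP-seq and CUT&Tag libraries were first reduced in proportion to the smallest. RNA reads were pre-processed with PRINSEQ and mapped to mm10 with HISAT2. The deposited peak lists give a fold enrichment, a ratio to background, and a -log10 p per peak, and the deposited island lists give a SICER score, 1 list per condition, so the depth behind single peaks is unknown. The RNA tables hold raw counts and normalised counts (a score computed by the authors with metaseqR) for genes the authors selected by p and fold change; their own fold changes and p-values were not used, nor were 114 other per-sample columns, transformed versions of the counts. Normalised counts equalled raw counts times 1 factor per library (median deviation 0.0549% and 0.0317%).

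Overlaps needed 1 bp. A gene lay in an island when its 5' end did (GENCODE M21, GRCm38). Raw counts of all listed genes with a minimum count of 10 were tested with the edgeR 4.0.16 quasi-likelihood test under the authors' factors, adjusted over 55450 annotated genes. Listed genes summed to 5734065 to 12780869 raw counts per library in the Setd8-LKO table and 1389901 to 3706582 in the other, which is not the libraries' depth. On simulated counts the test recovered 200 of 200 genes changed 4-fold, with 3 false calls of 3700 and 0 of 519. The simulation gave all genes the same spread between libraries, changed only well-counted genes and left most genes unchanged. Real genes differ in spread, some have low counts and most listed ones changed, so this does not measure how reliable the calls above are. The methods describe the RNA libraries as biological replicates, and p-values measure the spread between them.

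Named were, per table, up to 12 rises and 12 falls by log2 fold change among calls whose groups did not overlap, the genes of the lists, the 5 highest-scoring and 5 longest islands, the 3 with most Setd8-LKO peaks per assay, and the 2 highest Setd8-LKO peaks per assay. Other genes named, the motif searches and the printed sequences were chosen after values were seen. The members and lists were chosen with earlier results of these data known. Alternatives were TMM, DESeq2 1.42.0, filters, score and overlap thresholds, the replicate block, leaving out libraries and, added after seeing the data, run as a term and kept islands of up to 280 kb. Python 3.11.15, pandas 2.3.3, scipy 1.17.1, pysam 0.24.0, matplotlib 3.10.9 and R 4.3.3 were used.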

Additional observations from a re-analysis of the deposited data

Results flagged for a closer look

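Of 85 pairs of a listed gene and a group of libraries, 4 (4.71%) had a library far from the others, and chance alone gives about 5%. Clec2h and Obp2a each had 2 normalised counts in Setd8-LKO replicate 1 and 0 in the other 3 libraries. Mup7 had 45425 in Setd8-LKO replicate 3, where the median of the others was 5343. Tmem229a had 18 in wild type untreated replicate 2, where the median of the others was 12.

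Fam47e moved in opposite directions in the 2 tables, at -2.60 on the log2 scale in the libraries labelled Setd8-LKO and 1.28 in TCPOBOP-treated wild type. Every Setd8-LKO library was below and every TCPOBOP-treated wild type library above all untreated libraries, which both comparisons share. The difference itself was not tested, and the rise was not called under other scalings.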

How the results depend on the processing

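Of the 549 gained islands, 86 reached the median score of the Setd8-LKO list. In these, wild type and Setd8-LKO peaks per Mb were 15.0 and 12.5 for H3K27ac, 15.2 and 12.2 for ATAC, 2.50 and 9.17 for CTCF and 5.5 and 10.3 for Smc3. The share that overlapped a Lamin A/C island was 2.33% for each list taken alone, and not all of these islands were the same in both lists. With gene bodies instead of gene starts, 30 of 69 tested genes rose and 27 fell in the libraries labelled Setd8-LKO (50.7% and 33.9% of all tested listed genes), and 5 of 15 rose and 5 fell in TCPOBOP-treated wild type (51.9% and 16.4%). DESeq2 with size factors over the listed genes gave 10 rises in the first table and 0 rises and 4 falls in the second, with 4 and 1 rises in the lists of H4K20 methylation and heterochromatin, and turned Syt1 to -0.10 on the log2 scale in the second. TMM left the first table at 16 rises and 13 falls and gave 0 rises in the second, and 0 in its lists. DESeq2 with the authors' factors gave 2 rises and 4 falls there, and adjustment over the table alone 3 and 4, against 18 and 19 in the first table, where all 8 members without a call then gained one.

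With the replicate number as a block, 9 members rose and 8 fell in the first table and 0 and 0 in the second, where 1 gene of the lists rose. Libraries with the same number shared only that number, with correlations of their deviations of -0.0089, -0.0915, -0.145 and 0.0652 in the first table and from -0.406 to 0.222 in the second. Leaving out each library gave 12 to 15 rises and 11 to 14 falls in the first table and 0 to 1 and 1 to 4 in the second. The run in the column headers as a term, chosen after seeing the data, took the call from Rprd1a, BC023719, Gm4349 and Dpep1. Each list has 1 value per condition, so depth and replicate spread of the peak counts could not be separated.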
